A study of Mus musculus with 31 samples.

Results

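The 8 mRNAs described here, Map1b, Camk2a, App, Agap2, Pik3cb, Ptpn5, Bmpr2 and Sod1, have long been reported as targets whose translation is repressed by FMRP, the RNA-binding protein made from Fmr1. They were grouped by that reputation, and they are 8 of the 20436 gene symbols in the count tables. Ribosome footprints (RPF) and polyadenylated mRNA (RNA) were counted in the cortex of mice at postnatal days 29 to 34. The genotypes were wild type (WT), Fmr1-deficient (FXS), deficient in Rps6kb1, the gene of ribosomal protein S6 kinase 1 (S6K1), and deficient in both genes (DKO). Footprints were sequenced in 4 WT, 5 FXS, 3 S6K1 and 3 DKO libraries of batches 1 to 4, and mRNA in 4 libraries of each genotype, 1 per genotype in each of batches 5 to 8. The labels give no strain, sex, allele design or litter, so the FXS and S6K1 mice are described only as deficient. They do not say that the libraries of a group came from separate animals, nor whether an animal gave both kinds of library. The p-values below therefore measure the spread between these libraries, which may be technical.

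FMRP is absent in fragile X syndrome. It binds coding sequences and untranslated regions of many neuronal mRNAs and is known as a brake on their translation, in part by stalling ribosomes. S6K1 is phosphorylated downstream of mTORC1, phosphorylates ribosomal protein S6 and other translation factors, and its removal has been used to normalise excess protein synthesis in fragile X mice. The design asks whether the footprints of such mRNAs, and their translational efficiency (TE, footprints relative to mRNA), are higher in FXS and lower again in DKO. TE was tested as the log2 difference in footprints minus the log2 difference in mRNA, so a higher mRNA level at an equal footprint level gives a lower TE.

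The footprint libraries held 16.63 to 34.85 M counts (median 24.16 M) and the mRNA libraries 12.13 to 17.27 M (median 14.11 M), and all 8 genes passed the filter on low counts in both. Levels below are in CPM, library counts on the per-M scale after TMM scaling. The lowest counts of any of the 8 in an mRNA library were 450 for Bmpr2 and 566 for Pik3cb. The targeted genes were read as a check of the labels. For WT, FXS, S6K1 and DKO in turn, mean Fmr1 footprints were 117, 7.85, 133 and 10.5 CPM, and mean Rps6kb1 footprints were 28.9, 32.5, 10.2 and 11.6 CPM. Markers of cortical neurons and glia were all detected. Footprints of 3 of 7 oligodendrocyte markers were lower at an adjusted p under 0.05 both in FXS and in DKO. Of all 13953 genes, 21 were called lower in FXS and 47 in DKO. Summed footprints of the 7 markers ran from 2600 to 3729 CPM in WT, 1667 to 2504 in FXS and 1763 to 2527 in DKO. Their summed mRNA ran from 1798 to 2882 CPM in WT, 1676 to 2636 in FXS and 1713 to 3103 in DKO. Bulk cortex does not separate the number of cells of a type from the RNA of each cell, and the cause of the lower footprints was not tested. None of the 5 pan-neuronal markers and none of the 7 excitatory neuron markers was called in FXS, and their part in the results below was not tested.

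The mRNAs best known to respond to mTORC1, which lies upstream of S6K1, carry a terminal oligopyrimidine tract, a C at the very first base followed by a run of pyrimidines, and their response is known to persist in cells without S6 kinases. To see whether the 8 genes have such starts, these were read from RefSeq (GRCm38.p6), and 4 of them are shown, those of the genes to which the values below return most often. The first 5 bases are in capitals, 5′ to 3′ on the gene's strand, and lie at chr13:99516583-99516602 (minus strand), chr16:85173688-85173707 (minus), chr10:127078907-127078926 (plus) and chr16:90220762-90220781 (plus) in this order.
Map1b: GGACGcagggggcggagcgg
App: GTCAGtttcctcggcggcgg
Agap2: CTCAAtgtgaggggagcgcc
Sod1: CGCGGtcctttcctgcggcg
None of the 4 opens with C and 4 further pyrimidines. Of 8 RefSeq starts listed for 7 of the genes (Camk2a was not matched), 0 held that pattern, which was read on the gene's own strand at the first base only. The same pattern stood at 2.51% of 32851 RefSeq starts and at 18.6% of 70 starts of cytosolic ribosomal protein genes. The annotated starts need not be the starts used in cortex.

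In FXS cortex none of the 8 targets had more footprints or a higher TE than in WT at an adjusted p under 0.05. Their footprints lay close to WT, with a median log2 fold change of -0.08 and 6 of 8 below zero. Their mRNA leaned the other way, with a median of 0.16 and 7 of 8 above zero, and their TE had a median of -0.28 with 7 of 8 below zero. The medians of all genes tested were -0.00 in footprints, -0.01 in mRNA and -0.01 in TE, and since the 8 genes were a small chosen set these medians are a description. Sod1 was the exception in mRNA and TE, with lower mRNA and higher TE.

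By edgeR's quasi-likelihood test with Benjamini-Hochberg adjustment over all genes, 0 of 8 footprint differences between FXS and WT were called, against 0.165% of all 13953 genes tested, and 0 of 8 had an unadjusted p under 0.05, against 9.87% of all genes. In mRNA 0 of 8 were called (0.155% of 14215 genes) and 4 of 8, all higher in FXS, had an unadjusted p under 0.05 (12.7%). In TE 0 of 8 were called (0.0952% of 13654 genes), while 4 lower and 1 higher had an unadjusted p under 0.05 (13.4%). DESeq2 and limma voom called 0 of 8 in footprints and 0 of 8 in TE as well. In mRNA limma voom called 0 and DESeq2 called 2, Map1b (adjusted p = 0.0115) and Camk2a (0.0303), out of 201 genes that it called in all. A model of FXS and WT alone called the same pair (0.00506 and 0.0314) among 446 genes. The authors' deposited table of mRNA in FXS against WT also calls Map1b, at a log2 fold change of 0.30 (adjusted p 0.0148), and Camk2a, at 0.30 (0.0371). The authors' deposited tables of footprints and TE in FXS against WT call 0 of the 8.

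**Figure D1:**
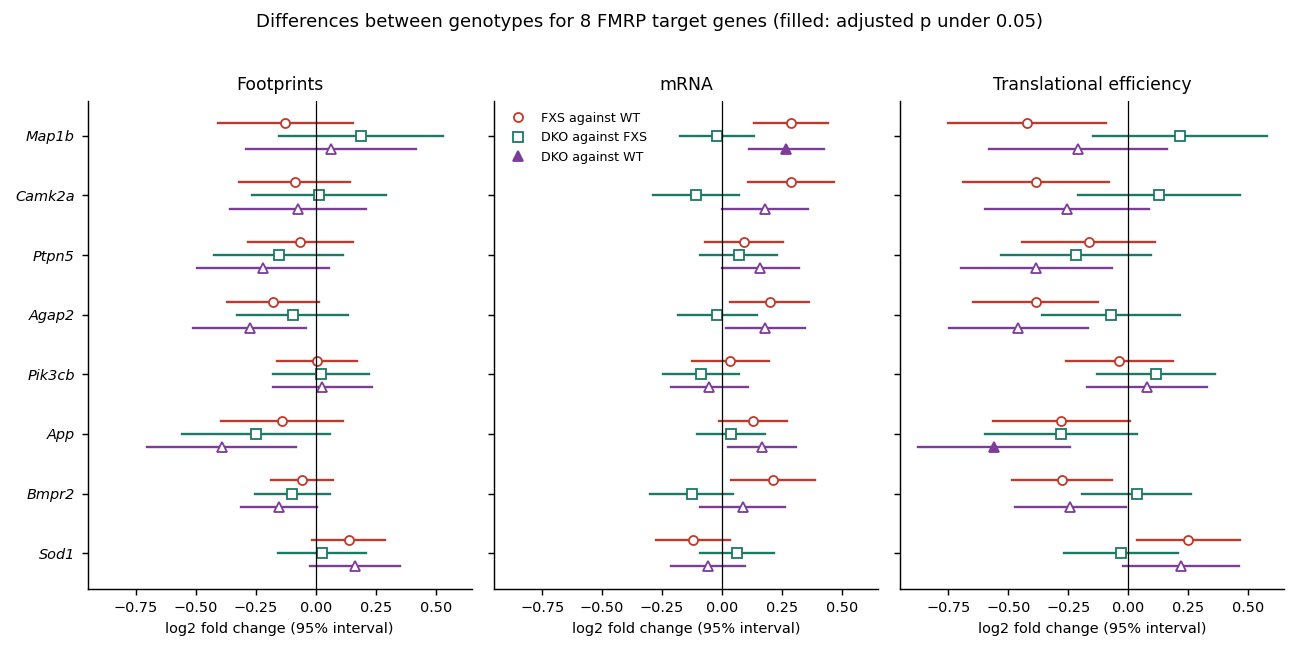
Log2 fold change (x axis) of each of the 8 genes (y axis) in footprints, mRNA and TE, for FXS against WT, DKO against FXS and DKO against WT, with 95% intervals; filled symbols have an adjusted p under 0.05. In FXS against WT the footprint intervals all span zero, 7 of 8 mRNA points lie above zero and 7 of 8 TE points below it, and the only filled symbols are Map1b mRNA and App TE in DKO against WT.

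The 95% intervals bound how much higher the footprints could have been relative to those of other genes. Counts were scaled to each library, so a change shared by all genes would not be seen. The upper bounds of the footprint log2 fold change were 0.29 for Sod1, 0.17 for Pik3cb, 0.15 for Map1b and 0.15 for Ptpn5. They were 0.14 for Camk2a, 0.11 for App, 0.07 for Bmpr2 and 0.01 for Agap2. The fold changes of Map1b, Ptpn5 and Agap2 were each higher with a single library left out, as given below. Their bounds therefore depend on single libraries. Values without single libraries are not given here for the other genes, whose bounds may depend on them too. App footprints differed by 0.20, -0.63 and -0.09 in batches 2, 3 and 4, and batch 3 held 1 library of each genotype. Across the 8 genes the standard error of a footprint difference was 0.060 to 0.13, and that of an mRNA difference 0.068 to 0.086.

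Map1b, which encodes a microtubule-associated protein of growing axons and dendrites, had the smallest mRNA p of the 8 in FXS against WT. In batches 5 to 8 its mRNA stood at 252.8, 245, 285 and 259.3 CPM in WT and at 312.7, 300.9, 344.2 and 314.2 CPM in FXS. Every FXS library lay above every WT library, and Map1b was the only 1 of the 8 whose FXS and WT mRNA did not overlap, as did 3.34% of all 14215 genes in either direction. The log2 fold change was 0.29 ± 0.075 (SE), 22.1% higher, with an unadjusted p of 0.000831 and an adjusted p of 0.102, rank 114 of 14215. Within each of the 4 batches the difference was 0.27 to 0.31. S6K1 mice had a similar level, at 304.5, 301.2, 304.8 and 343.8 CPM, and DKO mice stood at 370.7, 285, 291.2 and 308.6 CPM. Means were 318 ± 18.5 CPM (SD, n = 4) for FXS, 314 ± 20.2 for S6K1, 314 ± 39.2 for DKO and 261 ± 17.3 for WT, and the 3 mutant groups overlapped each other.

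Map1b footprints showed no such order. The WT libraries held 5816 (batch 2), 2551 (batch 3), 3142 and 2794 (batch 4) CPM, and the FXS libraries 3440 and 4207 (batch 2), 3042 (batch 3), 3097 and 2934 (batch 4). The groups overlapped, and the single WT library of batch 2 was the highest of all 15. The log2 fold change was -0.13 (95% interval -0.41 to 0.15, adjusted p = 0.771), and it was 0.07 (0.844) without that library. TE of Map1b differed by -0.42 ± 0.16 (SE, unadjusted p = 0.0138, adjusted p = 0.272), and by -0.22 (0.479) without the same library. The footprint to mRNA ratio itself was far above that of most genes in every genotype, at 12.96, 10.4, 13.3 and 11.3 for WT, FXS, S6K1 and DKO, where the WT median of all 13654 genes was 0.801 and Map1b stood at the 99.9 percentile. Its paralog Map1a, another microtubule-associated protein, had log2 fold changes of 0.31 in mRNA (0.181), -0.25 in footprints (0.562) and -0.57 in TE (0.214) in FXS against WT.

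**Figure D2:**
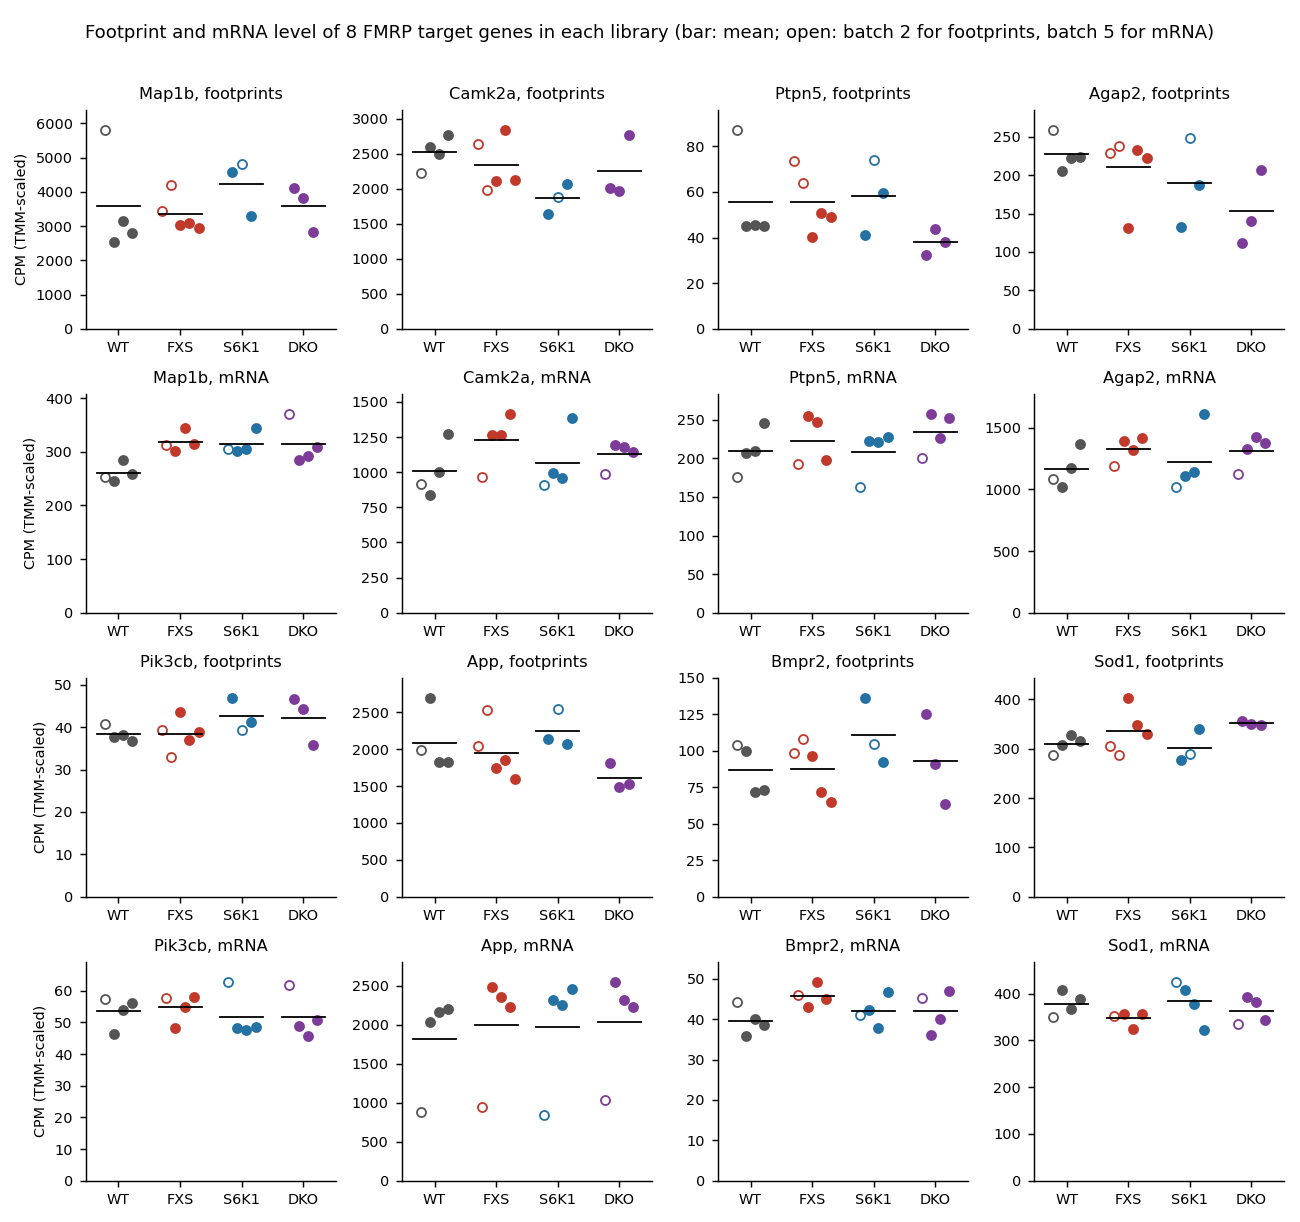
CPM (y axis, scaled per panel) of the 8 genes in every footprint library and every mRNA library, by genotype (x axis); bars are group means, and open symbols mark batch 2 for footprints and batch 5 for mRNA. Map1b mRNA in FXS (300.9 to 344.2 CPM) lies above WT (245 to 285), App mRNA of batch 5 lies below all other batches in every genotype, and footprints of FXS and WT overlap in all 8 genes (1.74% of all 13953 genes did not overlap).

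Camk2a encodes the alpha subunit of calcium/calmodulin-dependent kinase II, a kinase of the postsynaptic density whose mRNA is found in dendrites. Its mRNA in batches 5 to 8 was 915.7, 836.2, 1002 and 1269 CPM in WT and 968.4, 1262, 1262 and 1416 CPM in FXS. FXS was higher than WT inside each of the 4 batches, by 0.08 to 0.59 on the log2 scale, although the groups overlapped across batches. The log2 fold change was 0.29 (22.1% higher, unadjusted p = 0.00299, adjusted p = 0.167). Footprints were 2227, 2594, 2493 and 2767 CPM in WT and 2637, 1979, 2117, 2845 and 2124 CPM in FXS, a log2 fold change of -0.09 (0.818), and TE differed by -0.39 (unadjusted p = 0.0156, adjusted p = 0.279). Its partner subunit gene Camk2b had values of 0.14 in mRNA (0.355) and -0.03 in footprints (0.919). Of the other 19 kinase and calmodulin genes listed with it, 0 were called in footprints, mRNA or TE in FXS against WT, and their medians were -0.02, -0.01 and 0.00 in the same order.

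Ptpn5 encodes STEP, a striatal-enriched tyrosine phosphatase that acts on NMDA and AMPA receptor subunits, Fyn and ERK. Its footprints were 87.24 (batch 2), 44.86, 45.29 and 45.25 CPM in WT and 73.56, 64.02 (batch 2), 40.28, 50.99 and 49.22 CPM in FXS. The batch 2 libraries were high in both groups. The log2 fold change was -0.07 (adjusted p = 0.869) with all libraries and 0.08 (0.823) without the WT library of batch 2. Ptpn5 mRNA was 175.9, 207.2, 209.9 and 245.1 CPM in WT and 192.3, 254.4, 246.9 and 197.9 CPM in FXS, with FXS above WT in 3 of 4 batches and a log2 fold change of 0.09 (0.666). Summed footprints of 6 striatal markers also varied widely within groups, from 123 to 470 CPM in WT and from 101 to 364 CPM in FXS, and their part in the Ptpn5 values was not tested. Among STEP substrates and related phosphatases, 0 of 19 were called in footprints and 0 of 18 in mRNA or TE in FXS, and the related phosphatase gene Ptprr had 0.12 in footprints (0.672) and 0.14 in mRNA (0.647). Ptpn7, another relative, had a footprint value of 0.54 (0.819) and did not pass the mRNA filter.

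Agap2 and Pik3cb belong to the phosphoinositide 3-kinase (PI3K) pathway that runs from group 1 metabotropic glutamate receptors to Akt and mTORC1. Agap2 encodes PIKE, a GTPase that enhances PI3K, and Pik3cb encodes the p110 beta catalytic subunit. Agap2 mRNA was 1086, 1020, 1175 and 1364 CPM in WT and 1190, 1392, 1315 and 1414 CPM in FXS in batches 5 to 8. The difference was positive in all 4 batches, from 0.05 to 0.45, and the log2 fold change was 0.20 (unadjusted p = 0.0199, adjusted p = 0.302). Agap2 footprints were 259, 205.8, 222.8 and 223.3 CPM in WT and 228.2, 237.7, 130.8, 232.2 and 222.9 CPM in FXS. One FXS library, that of batch 3, lay below all others of both groups, and the footprint log2 fold change was -0.18 (0.539) with it and -0.08 (0.880) without it. TE of Agap2 differed by -0.39 ± 0.13 (SE, unadjusted p = 0.00498, adjusted p = 0.217), the smallest TE p of the 8 genes in this comparison, and by -0.29 without that library.

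Pik3cb differed least of the 8. Its mRNA was 57.37, 46.23, 54.05 and 56.15 CPM in WT and 57.6, 48.35, 54.77 and 58.15 CPM in FXS, and its footprints were 40.62, 37.67, 38.08 and 36.65 CPM in WT and 39.21, 33.04, 43.61, 36.88 and 38.95 CPM in FXS. The log2 fold changes were 0.04 in mRNA (adjusted p = 0.893), 0.00 in footprints (0.989) and -0.04 in TE (0.914), with a footprint interval of -0.16 to 0.17. The sister catalytic subunit gene Pik3ca had -0.01 in mRNA (0.954) and 0.00 in footprints (0.991). Over 31 other genes of the PI3K, Akt and PIKE pathway, 0 were called in FXS in any measure, and their medians were 0.00 in footprints, 0.10 in mRNA and -0.12 in TE. Agap1, a relative of Agap2, had 0.21 in mRNA (0.317) and 0.03 in footprints (0.951), and Agap3 had 0.12 (0.537) and 0.01 (0.979).

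App encodes the amyloid precursor protein, which is cut by secretases at neuronal membranes. Its mRNA depended strongly on batch: in batch 5 the WT, FXS, S6K1 and DKO libraries held 878.4, 939.5, 836.1 and 1030 CPM, and in batches 6 to 8 no library was below 2040. Against that background the FXS difference was small, with 2040, 2163 and 2202 CPM in WT and 2489, 2349 and 2229 CPM in FXS in batches 6 to 8. The difference was positive in each of the 4 batches, from 0.02 to 0.29, and the log2 fold change was 0.13 (adjusted p = 0.437). App footprints were 1984, 2696, 1830 and 1820 CPM in WT and 2046, 2524, 1747, 1856 and 1593 CPM in FXS, a log2 fold change of -0.14 (0.715), and TE differed by -0.28 (0.387). The relatives Aplp1 and Aplp2 had -0.14 (0.771) and -0.08 (0.792) in footprints and 0.07 (0.702) and 0.10 (0.558) in mRNA. None of 20 APP family and processing genes was called in FXS, and their medians were -0.07 in footprints, 0.10 in mRNA and -0.19 in TE.

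Bmpr2 encodes the type II receptor for bone morphogenetic proteins (BMPs), whose long tail binds LIM kinase 1, a regulator of actin in spines. Its mRNA was 44.16, 35.73, 39.98 and 38.52 CPM in WT and 45.84, 42.98, 49.24 and 45.1 CPM in FXS. FXS was higher in all 4 batches, by 0.05 to 0.30, with a log2 fold change of 0.21 (unadjusted p = 0.0197, adjusted p = 0.300). Footprints were 104.2, 99.8, 71.76 and 73.05 CPM in WT and 98.8, 107.9, 96.42, 71.57 and 64.91 CPM in FXS, and their log2 fold change of -0.06 (0.780) had the smallest error of the 8 genes (95% interval -0.19 to 0.07). TE differed by -0.28 (unadjusted p = 0.0110, adjusted p = 0.254). Of 33 other BMP receptors, ligands, Smads and related genes tested, 1 was called higher in FXS footprints (0.0143% of all genes) and 0 in mRNA. That gene was Acvr2a, a type II activin receptor, with 43.2 CPM ± 6.60 (SD, n = 5) in FXS over 30.3 ± 5.03 (n = 4) in WT, which rose by a log2 fold change of 0.48 (adjusted p = 0.0208). The Acvr2a call was made in 7 of 15 alternative settings and was lost without the batch term (1.00), and its mRNA had 0.08 (0.759). The type I receptor gene Bmpr1a had -0.01 in footprints (0.9753) and -0.02 in mRNA (0.943).

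Sod1 encodes the cytosolic copper and zinc superoxide dismutase, and its mRNA and TE values had signs opposite to those of most other targets. Its mRNA was 350.5, 407.5, 366.1 and 387.6 CPM in WT and 352.2, 357.1, 324.4 and 355.4 CPM in FXS, a log2 fold change of -0.12 (adjusted p = 0.521) and -0.19 to 0.01 inside the 4 batches. Its footprints were 287, 306.9, 328 and 315.5 CPM in WT and 305.2, 287.8, 403.5, 349.2 and 330.1 CPM in FXS. The groups overlapped, with a log2 fold change of 0.14 (0.560) that was positive in each of the 3 batches holding both genotypes (0.05, 0.39 and 0.08). TE of Sod1 differed by 0.25 (unadjusted p = 0.0245, adjusted p = 0.311), and Sod1 was the only 1 of the 8 with a positive TE value in FXS. Mitochondrial Sod2 had -0.00 in mRNA (0.992) and -0.02 in footprints (0.942), and Sod3, the extracellular form, had 0.22 (0.774) and -0.71 (0.478). Of 23 superoxide and peroxide defence genes, 0 were called in FXS in any measure.

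**Figure D3:**
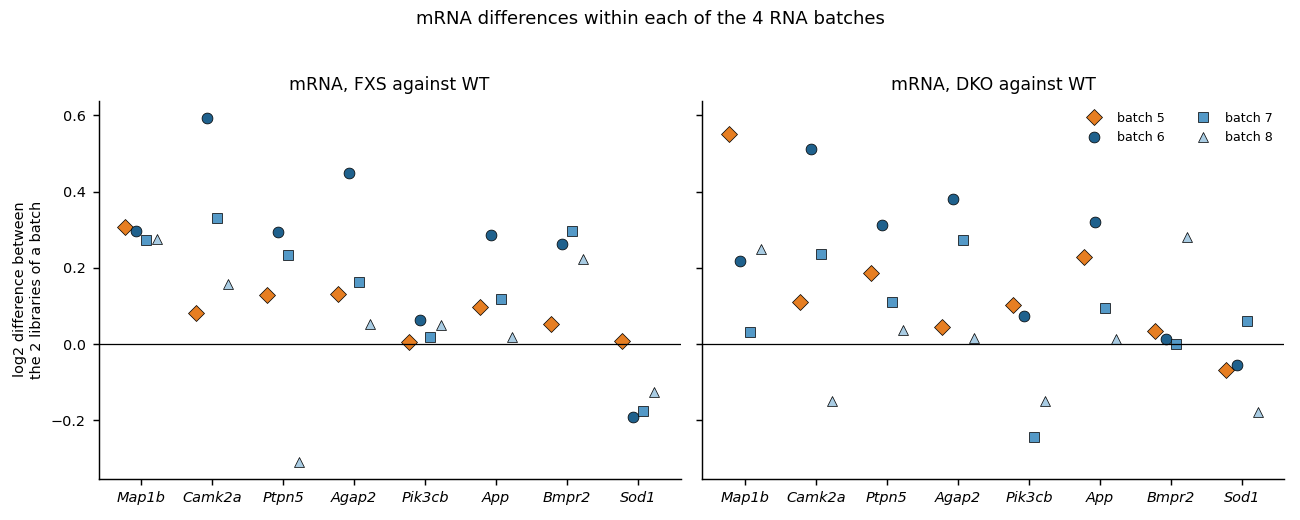
mRNA log2 difference (y axis) inside each of batches 5 to 8 for the 8 genes (x axis), for FXS and for DKO, each against WT; each point is 1 library against 1 library. In FXS against WT, 6 genes are above zero in all 4 batches, Ptpn5 in 3 and Sod1 in 1, and Map1b spans only 0.27 to 0.31, while in DKO against WT Map1b spans 0.03 to 0.55.

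The within-batch mRNA values above are each the difference of a pair of libraries. By batch, 6 of the 8 genes (Map1b, Camk2a, App, Agap2, Pik3cb and Bmpr2) were above zero in 4 of 4 batches, Ptpn5 in 3 and Sod1 in 1. In footprints, batches 2, 3 and 4 held both genotypes. Sod1 was above zero in all 3 (0.05 to 0.39) and Bmpr2 below zero in all 3 (-0.09 to -0.01). Differences of the other genes changed sign between these batches. They were -0.61, 0.25 and 0.03 for Map1b, 0.20, -0.63 and -0.09 for App, and -0.15, -0.65 and 0.03 for Agap2. Pan-neuronal marker mRNA moved little beside this, with a sum of 3696 to 4090 CPM in WT and 3812 to 4254 CPM in FXS, while the excitatory neuron sum was 2549 to 3453 CPM in WT and 2717 to 3962 CPM in FXS. Its part in the Camk2a and Agap2 values was not tested.

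No difference between DKO and FXS was called for any of the 8 targets, so no fall of footprints or TE was called when S6K1 was removed from the FXS background. In DKO against FXS, 0 of 8 footprint differences were called by edgeR (0.0143% of all genes) and 0 had an unadjusted p under 0.05 (6.19%). In mRNA 0 were called (0.0281%) and 0 had such a p (9.81%), and in TE 0 were called (0.0146%) and 0 had such a p (8.36%). The smallest adjusted p of the 8 was 0.777 in footprints, 0.644 in mRNA and 0.630 in TE, and DESeq2 and limma voom also called 0 in all 3 measures. Medians of the 8 log2 fold changes were -0.04, -0.02 and 0.00, and FXS and DKO libraries separated for 0 of 8 genes in footprints (3.73% of all genes) and for 0 of 8 in mRNA (2.78%). For Map1b mRNA, where FXS stood highest over WT, the DKO difference from FXS was -0.02 with a 95% interval of -0.18 to 0.13. Camk2a mRNA had -0.11 (-0.29 to 0.07), Bmpr2 mRNA -0.13 (-0.30 to 0.05) and Agap2 mRNA -0.02 (-0.18 to 0.14). In footprints the range over the 8 genes was from -0.25 for App (-0.56 to 0.06) to 0.19 for Map1b (-0.15 to 0.53). The FXS differences from WT were 0.29 for Map1b mRNA, 0.29 for Camk2a, 0.21 for Bmpr2 and 0.20 for Agap2. These differences carry errors of their own, so whether DKO reverses them cannot be read from the intervals of DKO against FXS. Both comparisons use the same FXS libraries.

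Against WT, DKO cortex had lower TE of App and higher mRNA of Map1b, and each call was made in some settings only. In footprints 0 of 8 were called (0.366% of all genes), and 2 of 8, both lower, had an unadjusted p under 0.05 (17.1%). DKO and WT libraries did not overlap for 3 of 8 genes in footprints, App, Ptpn5 and Sod1 (16.3% of all genes), and for 0 of 8 in mRNA (6.15%). The CPM compared in this way were not adjusted for batch. In mRNA 1 of 8 was called (5.23%), and 3, all higher, had an unadjusted p under 0.05 (22.3%). In TE 1 of 8 was called (4.85%), and 4, all lower, had an unadjusted p under 0.05 (24.9%). Medians of the 8 were -0.11 in footprints, 0.16 in mRNA and -0.25 in TE, which are side by side with -0.08, 0.16 and -0.28 in FXS. Both comparisons use the same WT libraries, so their likeness is not independent evidence.

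App TE fell by 0.56 ± 0.16 on the log2 scale (SE, 32.2% lower, adjusted p = 0.0400) in DKO against WT. App footprints were 1984, 2696, 1830 and 1820 CPM in WT and 1808, 1482 and 1524 CPM in DKO, and every DKO library lay below every WT library. The footprint log2 fold change was -0.39 (unadjusted p = 0.0170, adjusted p = 0.210), with -0.86 in batch 3 and -0.26 in batch 4, and DKO shared no other footprint batch with WT. App mRNA in DKO was 1030 CPM in batch 5 and 2550, 2311 and 2224 CPM in batches 6 to 8, a log2 fold change of 0.17 (0.150). The TE call was made in 13 of 23 alternative settings. It was lost at -0.34 (0.230) without the highest WT footprint library, that of batch 3, and at -0.44 (0.216) without the DKO footprint library of that batch. The authors' deposited table gives App TE in DKO against WT a log2 fold change of -0.54 with an adjusted p of 0.569.

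Among the genes of App processing, TE of 5 of 20 fell in DKO and 0 rose, where 3% of all genes fell and 1.85% rose, with a median of -0.23 against -0.02 over all genes. They included Bace1, the beta-secretase, at -0.59 (adjusted p = 0.0289), Apbb1, an adaptor that binds the App tail, at -0.37 (0.0254), and Aplp1 at -0.59 (0.0457). Mean Aplp1 footprints were 418 CPM ± 44.3 (SD, n = 3) for DKO beside 625 ± 111 (n = 4) for WT. The number called lower ran from 0 (without the batch term) to 7 over the alternative settings and was 3 without batch 5.

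Map1b mRNA rose in DKO against WT by 0.27 ± 0.075 (SE, 20.4%, adjusted p = 0.0404), with 0.55, 0.22, 0.03 and 0.25 in batches 5 to 8. The batch 5 DKO library, at 370.7 CPM, was the highest of all 16. Without batch 5 the value was 0.16 (0.247), without that DKO library alone it was 0.16 (0.184), and the call was made in 5 of 15 alternative settings. The authors' deposited table gives it 0.26 (adjusted p 0.0181). Map1b footprints in DKO were 4124, 3808 and 2825 CPM, overlapping WT, with a log2 fold change of 0.06 (0.867). Of 21 other microtubule-associated protein and tubulin genes, mRNA of 6 rose in DKO (3.17% of all genes) and 0 fell (2.06%), among them Tubb2a, a beta-tubulin, at 0.34 (0.00873) and Map1s, the third member of the Map1 family, at 0.38 (0.0132). In TE 4 of the 21 fell (3% of all genes), including Tubb4a at -0.44 (0.0305) and Map1s at -0.66 (0.0376). TE of Mapre1, a plus-end binding protein, rose by 0.49 (0.0285), where 1.85% of all genes rose. Without batch 5 mRNA of 3 of the 21 rose and TE of 0 fell.

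The other 6 targets were not called in DKO against WT. Agap2 TE came closest, at -0.46 (unadjusted p = 0.00315, adjusted p = 0.0554), with DKO footprints of 112, 140.3 and 207.2 CPM that overlapped WT. DESeq2 called it (0.0333). Ptpn5 footprints were 32.22, 43.88 and 37.96 CPM in DKO, all below the lowest WT library (44.86), with a footprint log2 fold change of -0.22 (0.383) and a TE value of -0.38 (unadjusted p = 0.0192, adjusted p = 0.124). The library at 32.22 CPM was of batch 1, which held no WT library. In the shared batches the footprint difference was -0.03 (batch 3) and -0.25 (batch 4). The summed footprints of the 6 striatal markers were 79.2 to 215 CPM in DKO, beside 123 to 470 in WT, and their part in the Ptpn5 values was not tested. Sod1 footprints were 356.2, 350.2 and 348 CPM in DKO, all above the highest WT library (328), with a log2 fold change of 0.16 (0.349). Camk2a had DKO footprints of 2020, 1977 and 2769 CPM and mRNA of 988.1, 1192, 1182 and 1144 CPM, with log2 fold changes of -0.07 (0.792) and 0.18 (0.226). Bmpr2 footprints were 125.4, 90.8 and 63.9 CPM and Pik3cb footprints 46.55, 44.23 and 35.88 CPM, both overlapping WT, with log2 fold changes of -0.15 (0.302) and 0.03 (0.900). In DKO mRNA of batches 5 to 8, Agap2 stood at 1121, 1327, 1421 and 1378 CPM, with a log2 fold change of 0.18 against WT (unadjusted p = 0.0338, adjusted p = 0.183). Ptpn5 mRNA was 200.1, 257.6, 226.7 and 251.7 CPM, a value of 0.16 (0.227), and Bmpr2 mRNA was 45.27, 36.08, 39.99 and 46.92 CPM, a value of 0.09 (0.595). Both overlapped WT. Sod1 mRNA was 334.3, 392.3, 381.6 and 342.8 CPM and Pik3cb mRNA 61.68, 48.71, 45.56 and 50.6 CPM, with values of -0.06 (0.683) and -0.05 (0.735) that left them the only 2 of the 8 below zero in mRNA. Excitatory neuron markers differed alongside these values. Of 7, 3 were called higher in DKO mRNA (3.17% of all genes) and 2 lower in TE (3%), and their part in the results was not tested.

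**Figure D4:**
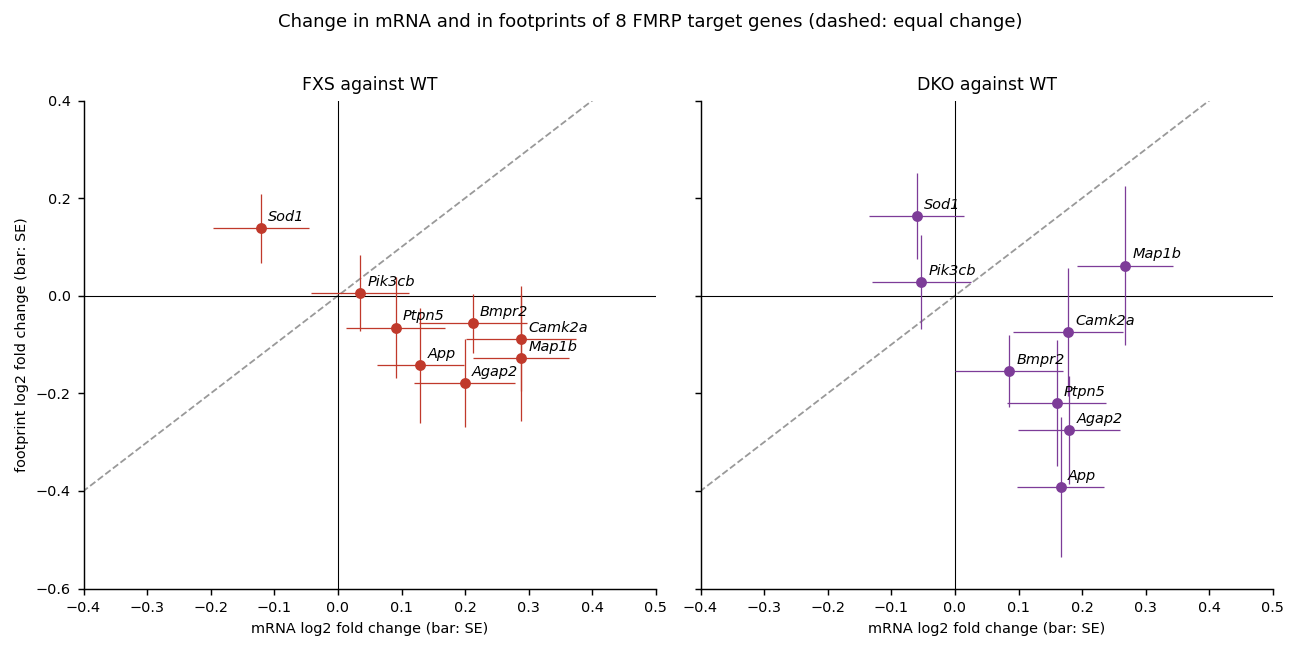
mRNA log2 fold change (x axis) against footprint log2 fold change (y axis) of the 8 genes, with standard errors, in FXS and DKO, each against WT; the dashed line marks equal change, which is a TE difference of zero. In FXS 7 of 8 genes lie below the line and Sod1 above it, and App in DKO lies farthest below it (0.17 in mRNA, -0.39 in footprints).

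Loss of S6K1 alone gave no call among the 8. In S6K1 against WT, 0 of 8 were called in footprints (0.00717% of all genes; unadjusted 0 of 8, 8.74%), 0 in mRNA (0.0211%; unadjusted 1, 7.37%) and 0 in TE (0.0293%; unadjusted 1, 7.51%). The mRNA value was that of Map1b, at 0.27 (unadjusted p = 0.00160, adjusted p = 0.510), and the TE value that of Camk2a, at -0.35 (unadjusted p = 0.0450, adjusted p = 0.652). Camk2a footprints were 1639, 1890 and 2064 CPM in S6K1, all below the lowest WT library (2227), and Camk2a was the only 1 of the 8 whose S6K1 and WT footprints did not overlap (9.91% of all genes). In mRNA Map1b alone did not overlap (1.6%). Footprints of Map1b in S6K1 were 4568, 4805 and 3308 CPM, those of App 2134, 2550 and 2066 CPM, those of Agap2 133.1, 247.8 and 186.7 CPM and those of Bmpr2 136.4, 104.6 and 92.43 CPM, and each of these groups overlapped WT. DESeq2 and limma voom called 0 of 8 in each measure.

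DKO against S6K1 compares the presence and absence of Fmr1 where S6K1 is missing in both groups. Here 0 of 8 footprints were called (0.00717%), and 3 were lower at an unadjusted p under 0.05 (8.67%). They were App at -0.37 (unadjusted p = 0.0258), Agap2 at -0.28 (unadjusted p = 0.0270) and Ptpn5 at -0.38 (unadjusted p = 0.0103, adjusted p = 0.502). In mRNA 0 were called (0.387%) and 1 was higher at such a p (14.8%). It was Ptpn5 at 0.18 (unadjusted p = 0.0342, adjusted p = 0.294). In TE 0 were called (0.00732%), and 3 lower and 1 higher had such a p (14.6%), with App at -0.45, Agap2 at -0.40, Ptpn5 at -0.56 and Sod1 at 0.24. The smallest adjusted p of these was 0.201, for Ptpn5 TE. DESeq2 and limma voom called 0 of the 8 in each measure.

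The interaction asks whether the effect of losing Fmr1 differs between mice without and with S6K1, as DKO minus S6K1 less FXS minus WT. By edgeR 0 of 8 were called in footprints (0% of all genes; unadjusted 0 of 8, 3.07%), 0 in mRNA (0%; unadjusted 1, 3.5%) and 0 in TE (0%; unadjusted 1, 4.14%), and DESeq2 and limma voom called 0 of the 8. The mRNA value was that of Map1b at -0.29 (unadjusted p = 0.0121, adjusted p = 1.00), beside equal means of 314 CPM in S6K1 and DKO. The TE value was that of Camk2a at 0.48 (unadjusted p = 0.0428, adjusted p = 1.00).

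Other mRNAs linked to FMRP were read from 2 lists that do not hold the 8 genes. Of 35 other mRNAs reported as FMRP-repressed, such as Arc, Dlg4 and the Shank genes, 0 were called in FXS against WT in any measure. Their medians were -0.09 in footprints, 0.10 in mRNA and -0.21 in TE. Of 51 large FMRP-bound neuronal mRNAs, 1 rose in FXS mRNA (0.0774% of all genes), Kif1b, a kinesin motor, at 0.33 (adjusted p = 0.0420), from 262 CPM ± 24.2 (SD, n = 4) to 329 ± 37.4 (n = 4). In TE 2 of the 51 fell (0.0659% of all genes), Adcy1, a calmodulin-stimulated adenylate cyclase, at -0.67 and Tnr, the matrix protein tenascin R, at -0.61, both at an adjusted p of 0.0497. The medians of the 51 were -0.11 in footprints, 0.20 in mRNA and -0.31 in TE. The count of genes called higher in mRNA among the 51 ran from 0 to 23 over the alternative settings (23 in the model of FXS and WT alone), and that of genes called lower in TE from 0 to 11 (11 with DESeq2). Without batch 5 these counts were 2 and 0.

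In DKO against WT, where 3.17% of all genes rose in mRNA, mRNA of 4 of the 35 reported targets rose, including Dlgap4, a postsynaptic scaffold, at 0.25 (adjusted p = 0.0258) and Nlgn2, a neuroligin of inhibitory synapses, at 0.33 (0.0297). TE of 4 fell, where 3% of all genes did, including Shank1, a postsynaptic scaffold, at -0.80 (0.0310) and Nlgn2 at -0.70 (0.0381), and TE of Fxr1, an FMRP paralog, rose by 0.41 (0.0254). Among the 51 large mRNAs, mRNA of 7 rose and 2 fell, with Chd5 at 0.31 (0.0119), Syn1 at 0.35 (0.0132), Macf1 at -0.30 (0.0240) and Ryr2 at -0.30 (0.0344). Footprints of 1 fell (0.337% of all genes), Adcy1 at -0.57 (0.0472), a call made in 2 of 13 alternative settings. TE of 8 fell, with Adcy1 at -0.80 (0.00808) and Prrc2b at -0.64 (0.0272). Without batch 5 the 35 targets held 2 calls of higher mRNA and 2 of lower TE, and the 51 large mRNAs held 4 and 5, with 1 of lower mRNA. In the remaining lists DKO against WT gave higher mRNA for Camkk2 at 0.27 (0.0167) and Camk2b at 0.25 (0.0270), kinases of the calmodulin group, for the kinase gene Src at 0.31 (0.0132), and for Gdf1 at 0.50 (0.0120) and Acvr1b at 0.26 (0.0431) of the BMP group. It gave lower mRNA for Prdx1 at -0.26 (0.0299) and Nfe2l2 at -0.37 (0.0471), 2 of the 23 peroxide defence genes, and lower TE for Ptprs at -0.59 (0.0398). Gdf1 had almost no footprints, with means of 0.53 CPM in WT and 0.23 CPM in DKO. Without batch 5 the mRNA calls fell from 2 to 0 in the calmodulin group, from 2 to 0 among the peroxide defence genes and from 2 to 1 in the BMP group. No gene of any of these 9 lists was called by edgeR in DKO against FXS, and without the batch term none of the 9 lists held a call in FXS or DKO against WT.

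**Figure D5:**
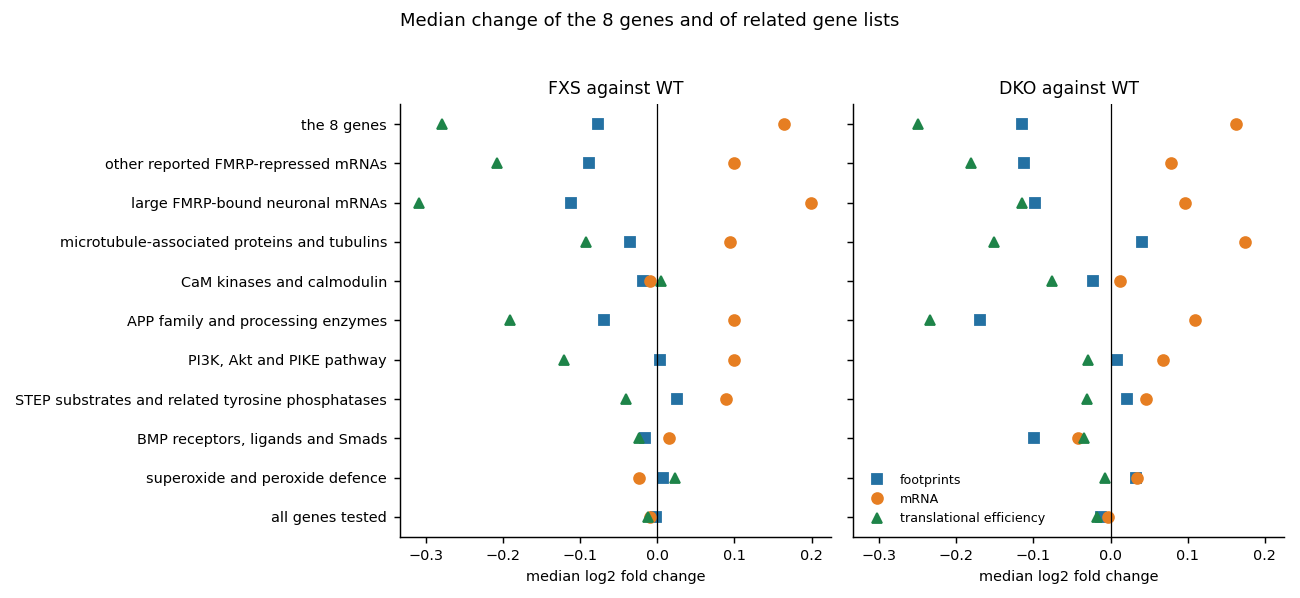
Median log2 fold change (x axis) of the 8 targets, of 9 gene lists and of all genes tested (y axis), in footprints, mRNA and TE, for FXS and DKO, each against WT. In FXS the large FMRP-bound mRNAs (0.20 in mRNA, -0.31 in TE) and the 8 targets (0.16 and -0.28) lie farthest from all genes (-0.01 and -0.01). The genes and lists were chosen with earlier results of these data known, so this ranking is a description.

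Footprint to mRNA ratios, which need no gene length, set the 8 genes far apart in WT. Besides Map1b, they were 2.53 for Camk2a, 2.16 for Bmpr2, 1.20 for App, 0.819 for Sod1, 0.720 for Pik3cb, 0.258 for Ptpn5 and 0.197 for Agap2, which places Camk2a at the 94.8 percentile of all genes and Agap2 at the 4.26 percentile. In FXS the ratios were 1.91, 1.88, 1.03, 0.959, 0.702, 0.248 and 0.155 in the same order, and in DKO 1.98, 2.14, 0.834, 0.971, 0.820, 0.164 and 0.114. The order of the 8 genes in WT was kept in FXS but not in DKO, where Bmpr2 stood above Camk2a and Sod1 above App. The ratios are not adjusted for batch.

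The genes most like each target were taken from log2 CPM over all 31 libraries, with batch removed within each assay and the assay mean subtracted, as up to 2 of the highest Pearson correlations among 13654 genes. App was closest to Psap (r = 0.957) and Sez6l2 (0.954), Agap2 to Speg (0.917), and Sod1 to Pfdn5 (0.883) and Mrps18c (0.875). Map1b was closest to Sec16a (0.845) and Sec24b (0.837), Bmpr2 to Gabrb2 (0.822) and Sel1l (0.805), and Camk2a to Prdm8 (0.812) and Fam189a1 (0.793). Ptpn5 was closest to Smarca4 and Gpr6 (both 0.765), and Pik3cb to Snx25 (0.715) and Hdac8 (0.710). Among the 8 genes themselves the highest correlation was that of App with Agap2 (0.741) and the lowest that of Agap2 with Sod1 (-0.682). All of these values share libraries, depth and scaling.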

How the data were processed

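Per the labels, cortices were dissected, mRNA libraries were made with a polyA TruSeq kit, and the source of the footprint protocol is left blank. The submitters' processing notes name cutadapt 2.0, Bowtie2, TopHat2, RSEM and mm10 without roles. The authors deposited raw counts per gene symbol. The authors also deposited comparison tables that, per the file headers, hold a mean normalized signal (scale not stated), a log2 fold change, a test score and p-values. Their tool and model are not given in the sources used here. Genotype and batch came from the labels.

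Counts were fitted with edgeR 4.0.16 (quasi-likelihood F-test, R 4.3.3), with filterByExpr, TMM factors and a batch term, all genotypes together. TE was footprint minus mRNA contrast in 1 model of 31 libraries, batch nested in assay. CPM are TMM-scaled. A call needs an adjusted p (Benjamini-Hochberg, all genes of a test) under 0.05, and adjusted p-values in the text are edgeR's unless another tool is named. Libraries of 1 batch deviated together (median correlation 0.303 in footprints and 0.296 in mRNA, against -0.101 and -0.149 between batches). No replicate duplicated another (chi-square per degree of freedom at least 4.67). Alternatives used DESeq2 1.42.0, limma 3.58.1 voom, RLE factors, no filter, no batch term, only the compared genotypes, no batch 5 and each library left out. Scripts were tested on simulated data without batch effects and with the same dispersion for every gene, in which FXS footprints of some genes were changed. A log2 change of 0.5 was called for 83% of such genes in footprints and for 30.7% in TE. Unchanged genes were called too, 18 in footprints and 7 in TE. These shares need not hold for the real libraries, which shifted by batch. TE differences of that size can therefore go uncalled.

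The 8 genes, the lists and the naming rule were chosen with earlier results of these data known. The genes named are the 8, Fmr1, Rps6kb1, their closest relatives, and up to 2 called genes per list, measure, contrast and direction with the smallest adjusted p. One gene that the likeness rule named is not reported here.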

Additional observations from a re-analysis of the deposited data

Results flagged for a closer look

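Single libraries stood apart from the rest of their group in 10 of 60 groups of 4 or 5 libraries looked at. Chance flags about 1 in 20 groups where values are independent and free of batch shifts. Here values were not adjusted for batch, and the same libraries recur across the groups. All values are CPM. In mRNA, 3 of them were App in batch 5: 878 in WT (others 2040 to 2202), 940 in FXS (others 2229 to 2489) and 836 in S6K1 (others 2255 to 2461), and the DKO library of that batch was low too, at 1030. Batch 5 also held the S6K1 libraries that were highest for Pik3cb, at 62.8 (others 47.6 to 48.6), and lowest for Ptpn5, at 162 (others 221 to 227).

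The S6K1 mRNA library of batch 8 was the highest of its group for Map1b, at 344 (others 301 to 305), and for Camk2a, at 1388 (others 912 to 991). Sod1 mRNA was lowest in the FXS library of batch 7, at 324 (others 352 to 357). In footprints, Agap2 was lowest in the FXS library of batch 3, at 131 (others 223 to 238), and Ptpn5 was highest in the WT library of batch 2, at 87.2 (others 44.9 to 45.3). The causes were not tested.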

How the results depend on the processing

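Over the alternatives, no value of the 8 genes that was called changed sign. In mRNA of FXS against WT the number of the 8 genes called was 2 with DESeq2 and 2 with only the 2 genotypes, against 0. In mRNA of DKO against WT it was 0 without a batch term, 0 with only the 2 genotypes and 0 without batch 5, and it ran from 0 to 1 with each library left out in turn, against 1. In TE of DKO against WT it was 2 with DESeq2, 0 without a batch term and 0 without batch 5, and it ran from 0 to 2 with each library left out, against 1; the cause was not tested. In all other comparisons the number stayed at 0. Library factors taken from each assay's own genes, an alternative added after seeing the data, left the number of TE calls among the 8 as it was in all 6 comparisons. No paired analysis was possible because the labels carry no replicate numbers to pair by; the batch term, with 1 mRNA library of each genotype per batch, blocks the mRNA libraries by batch, and the values without it are those given above. Footprint batches 1, 2 and 4 each lacked at least 1 genotype, and DKO had 3 footprint libraries.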
